A study of Mus musculus with 19 samples.

Results

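Skeletal progenitor fractions that lack CD105 were compared, namely cells that carried Thy but not 6C3, labelled Thy+6C3-CD105- (3 arrays), and cells that carried 6C3 but not Thy, labelled Thy-6C3+CD105- (3 arrays). They are called Thy+ cells and 6C3+ cells here. The 6 arrays were chosen by the cell population field of the labels, out of 19 arrays of an Affymetrix mouse genome type. Both fractions came from fore and hind limbs of mice at postnatal day 3, labelled wild type, with GFP-labelled animals named in the growth protocol. Limbs of a litter were pooled, and all sorted cells were negative for CD45, Ter119 and Tie2 and positive for integrin alpha V. A second pair of populations differs in the same antigens but carries CD105. It is made up of Thy+6C3-CD105+ cells (3 arrays) set against Thy-6C3+CD105+ cells (3 arrays). The population labelled Thy-6C3-CD105- (3 arrays) lacks all 3 antigens. The labels do not say whether arrays of a population came from separate litters, so the spread between arrays may be partly technical. P-values measure this spread pooled over all 18 neonatal arrays, not that of the 6 compared arrays alone.

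Thy is a small surface glycoprotein anchored by a lipid and widely used to sort fibroblastic and progenitor cells. The 6C3 antibody recognises aminopeptidase A, a membrane enzyme encoded by Enpep, and was first used to mark lymphoid precursors and the stromal cells that support them. CD105, or endoglin, is an accessory receptor for ligands of the TGF beta family. In growing limbs, cells of the cartilage lineage make a matrix of collagen II, collagen IX and aggrecan, whereas perichondrial, tendon and other fibrous cells make collagen I and elastic fibres.

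The antigens of the sort were read first, as a check of the labels. Thy1, which encodes Thy, had log2 signals of 10.38, 10.31 and 9.99 in Thy+ cells, against 5.71, 5.78 and 5.95 in 6C3+ cells. The groups lay far apart, by 4.41 ± 0.23 on the log2 scale (SE of the fit; 21.3-fold, limma adjusted p = 9.02e-09). Enpep had 7.61, 8.67 and 6.2 in Thy+ cells, against 10.91, 11.24 and 10.76 in 6C3+ cells, a difference of -3.48 ± 0.47 (adjusted p = 0.000333). Replicates 2 and 3 of the 6C3+ cells are called Thy+ in their titles but Thy- in their population field, and their Thy1 level was that of the Thy- populations. Eng, which encodes CD105, had 7.51, 7.61 and 8.58 in Thy+ cells, against 7.22, 6.65 and 7.82 in 6C3+ cells, and did not pass the test (0.67 ± 0.30, adjusted p = 0.256). The highest of these, replicate 3 of the Thy+ cells, lay within the range of the arrays of the CD105+ pair (8.17 to 8.76). Tek, the gene of the Tie2 antigen that the gate left out, rose to 6.50, 6.17 and 6.49 in Thy+ cells, against 4.78, 5.02 and 5.12 in 6C3+ cells (1.41 ± 0.17, adjusted p = 0.000159). Ptprc, which encodes CD45, was low in both groups and did not differ past the test (0.12, adjusted p = 0.843). Cd200 and Itgav did not pass either (-1.13 and -0.53, adjusted p = 0.156 and 0.278).

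**Figure D1:**
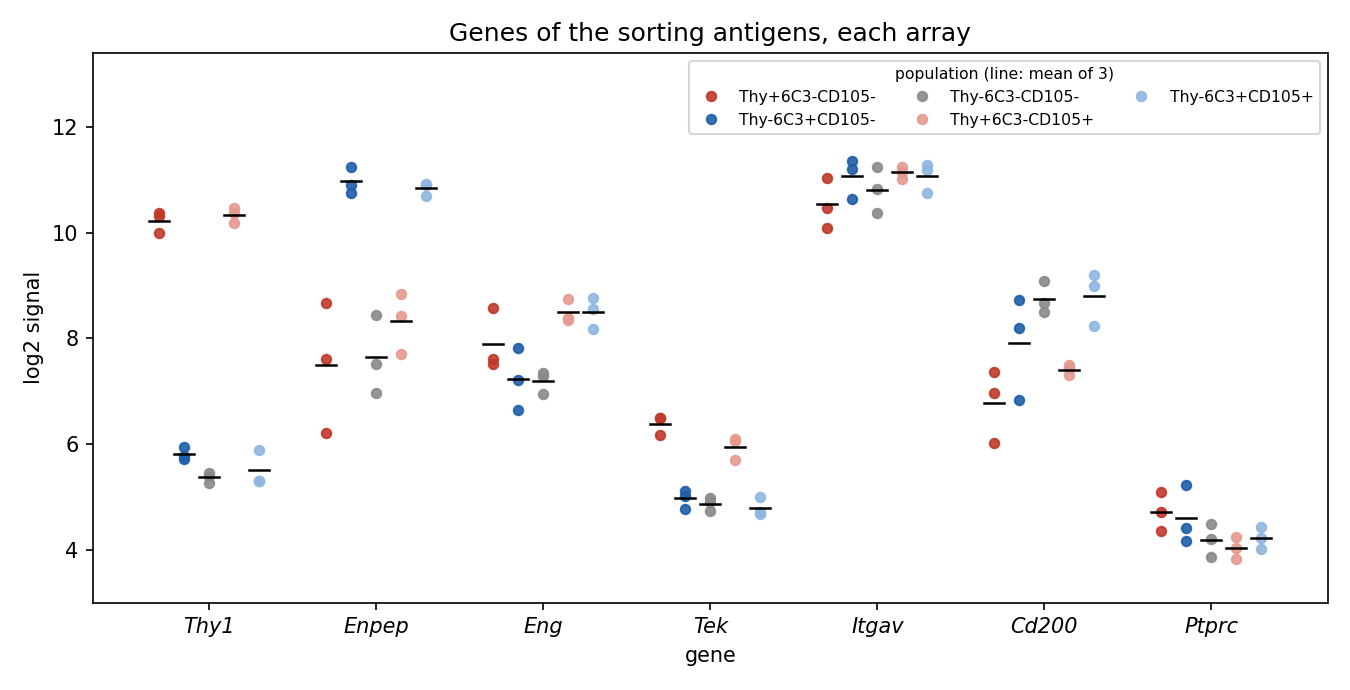
Log2 signal of the genes of the sorting antigens on every array of 5 populations, with a line at the mean of 3 arrays. Thy1 and Tek are higher in each Thy+ population than in the matching 6C3+ population, and Enpep is lower, and 1 Thy+6C3-CD105- array has an Eng signal of 8.58.

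Measures of array quality differed between arrays. Replicate 3 of the Thy+ cells stood apart from its replicates, with a mean correlation of 0.936 with them, where the other arrays of both groups had 0.956 to 0.971. On the neonatal arrays of the other populations it was 0.978 to 0.990. The pooled SEs thus draw on arrays that varied less than the compared ones. Replicate 2 of the 6C3+ cells had the highest deposited median of all arrays (6.02). The Gapdh 3' to 5' difference, a sign of RNA or amplification quality, was 2.77, 2.17 and 1.98 in Thy+ cells and 2.08, 2.15 and 2.32 in 6C3+ cells. Poly-A control probe sets divided the 18 neonatal arrays into 11 with high and 7 with low signal, and replicate 1 of each group was in the low set. In bulk samples such as these, fewer cells of a type and less RNA per cell cannot be told apart.

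Among the gene lists, cartilage matrix had the most calls, with 14 of 25 genes lower in Thy+ cells than in 6C3+ cells and 2 higher. Next, with equal numbers of calls, were the joint surface list (7 of 16 lower, none higher) and the tendon and fibrous list (5 of 37 higher, 2 lower). The called genes Prg4 and Cilp are on both the cartilage matrix and the joint surface list. Of 18193 genes, each read by 1 probe set, 407 passed limma's test at an adjusted p under 0.05 (2.24%). Among them 167 rose in Thy+ cells (0.918% of all genes) and 240 fell (1.32%), and 314 differed at least 2-fold. Over all genes tested, the groups of arrays did not overlap for 2630 (14.5%), among them 405 of the 407. The median log2 difference of all genes was 0.0673, and it was -0.0567 with the values as deposited, so the zero of the scale depends on the scaling. The median of a list could move further, as given below for the pericyte and smooth muscle genes. The split of the calls also moved, to 84 higher and 404 lower with the values as deposited and 73 higher and 259 lower with a common median. Leaving out replicate 3 of the Thy+ cells left 325 calls, 140 higher (0.77%) and 185 lower (1.02%), and 259 of the 407 were kept (63.6%). Without replicate 2 of the Thy+ cells 803 genes passed, without replicate 2 of the 6C3+ cells 221, and without both arrays that stood apart 242. A fit of the 6 compared arrays alone called 33 genes, 11 higher and 22 lower.

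By the rule for named genes, 110 called genes are named or counted in the lists, and 18 of them passed in every one of the 21 alternative settings that tested them. In 1 of these settings, grouping by title, the 6C3+ cells are a single array, assumed to vary like the other groups. The 8 that were higher in Thy+ cells were Thy1, whose rise was set by the sort, and Ednrb, Prph, Ptx4, Epyc, Erbb3, Mfap4 and Eln. The 10 that were lower were Mmp13, Frzb, Calml3, Epas1, Cytl1, Gdf10, Col2a1, Smpd3, Cilp and Wwp2. Their largest adjusted p over those settings lay between 0.00838 (Thy1) and 0.0475 (Smpd3).

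After Thy1, the largest rise in Thy+ cells was that of Ednrb, the endothelin B receptor. Its log2 signal was 7.79, 8.70 and 8.47 in Thy+ cells, against 5.01, 5.0 and 5.12 in 6C3+ cells (3.28 ± 0.26, 9.69-fold, adjusted p = 1.16e-06). Every Thy+ array lay far above every 6C3+ array. The other probe sets of Ednrb changed by 0.34 and 0.19, and the mean of its probe sets by 1.27 (adjusted p = 5.08e-05). Prph, the intermediate filament peripherin of peripheral neurons, had 8.79, 8.90 and 9.32 in Thy+ cells, against 6.52, 6.00 and 6.15 in 6C3+ cells (2.78 ± 0.26, adjusted p = 1.05e-05). The mean of the Prph probe sets changed by 0.98 (adjusted p = 0.00504). Crabp1, a cytosolic binding protein of retinoic acid, had 9.38, 8.98 and 8.46 in Thy+ cells, against 7.46, 5.59 and 6.10 in 6C3+ cells (2.56 ± 0.37, adjusted p = 0.000585). Replicate 2 was the lowest of the 6C3+ arrays for both Prph and Crabp1. Ptx4, a member of the pentraxin family, had 9.31, 9.63 and 9.43 in Thy+ cells, against 6.89, 7.31 and 7.16 in 6C3+ cells (2.34 ± 0.26, adjusted p = 6.23e-05). Pi16, a secreted protein used as a marker of fibroblasts of the adventitia, had 8.61, 8.15 and 8.24 in Thy+ cells, against 6.08, 5.29 and 6.69 in 6C3+ cells (2.31 ± 0.32, adjusted p = 0.000462). The arrays of the groups did not overlap for any of these genes.

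The others among the 15 largest rises were Dpep1, Ifitm1, Uts2r, Epyc, Krt15, Ang, Mgst1, Erbb3 and Cdo1, with log2 differences from 2.07 to 2.36. Erbb3, a neuregulin receptor of Schwann cells, had 7.13, 7.51 and 7.28 in Thy+ cells, against 5.46, 5.48 and 4.74 in 6C3+ cells (adjusted p = 5.01e-05). Dpep1, a membrane dipeptidase, had 8.36, 6.89 and 7.69 in Thy+ cells, against 5.2, 5.51 and 5.14 in 6C3+ cells (adjusted p = 0.000641). Cdo1, the enzyme that oxidises cysteine, had 8.60, 8.82 and 8.81 in Thy+ cells, against 6.95, 7.01 and 6.05 in 6C3+ cells (adjusted p = 0.000166). A pair of these calls rested on single arrays. Krt15 lost its call without replicate 1 or 2 of the 6C3+ cells (adjusted p = 0.0649 and 0.0962), and Ang, a secreted ribonuclease, without replicate 1 or 3 of the Thy+ cells. Ang also lost its call with a common median, with array weights and with the mean of its probe sets. The same held without probe sets that can match several transcripts, such as the one used for Ang. Its other probe sets changed by 1.21 and 0.41.

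The largest falls in Thy+ cells included genes of joint tissue, cartilage and Wnt signalling. Col22a1, a collagen of tissue junctions, had 5.72, 5.47 and 5.77 in Thy+ cells, against 9.63, 9.43 and 9.27 in 6C3+ cells (-3.79 ± 0.30, adjusted p = 1.32e-06). Its probe set can also match related transcripts, and 2 other probe sets of the gene gave differences of -0.68 and -1.99. The call of Col22a1 was lost when probe sets of that kind were left out (-0.68, adjusted p = 0.238). Mmp13, the collagenase of the growth plate, had 4.40, 3.92 and 3.42 in Thy+ cells, against 7.51, 7.75 and 7.0 in 6C3+ cells (-3.51 ± 0.41, adjusted p = 0.000115). Frzb, a secreted Wnt antagonist of cartilage, had 5.16, 5.04 and 4.5 in Thy+ cells, against 8.71, 7.81 and 8.39 in 6C3+ cells (-3.40 ± 0.34, adjusted p = 1.73e-05). The arrays of the groups did not overlap for any of the 3 genes. Calml3, a calmodulin-like protein, had 5.53, 5.32 and 5.33 in Thy+ cells, against 8.01, 8.96 and 8.71 in 6C3+ cells (-3.16 ± 0.29, adjusted p = 6.87e-06). Lgr6, a receptor for R-spondins, had 6.56, 6.83 and 5.76 in Thy+ cells, against 9.94, 8.38 and 10.18 in 6C3+ cells (-3.12 ± 0.40, adjusted p = 0.000238). The other falls among the 15 were Enpep, whose fall was set by the sort, and Vit, Ell2, Sorbs2, Tspan13, Epas1, Cracd, Lpar4, Nfkbiz and Scin, from -3.48 to -2.93.

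Several of the falls leaned on replicate 3 of the Thy+ cells. Ell2, an elongation factor of RNA polymerase II, had 7.79, 8.03 and 3.55 in Thy+ cells, against 9.54, 9.94 and 9.77 in 6C3+ cells. Lpar4, a receptor for lysophosphatidic acid, had 7.60, 7.15 and 3.51 in Thy+ cells, against 9.34, 9.17 and 8.69 in 6C3+ cells. Without that array their differences were -1.84 and -1.69, where the full fit gave -3.29 and -2.98. Nfkbiz, a nuclear regulator of NF-kappa-B, was no longer called without it (adjusted p = 0.0562) or without replicate 2 of the 6C3+ cells (adjusted p = 0.0823). Without the last array Ell2 and Lpar4 lost their calls too (adjusted p = 0.091 and 0.0842), and Lpar4 also without replicate 1 of the 6C3+ cells (adjusted p = 0.0634). For Ell2, Sorbs2 and Cracd a probe set that was not used had the opposite sign, and 20 named genes in all had such a probe set.

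**Figure D2:**
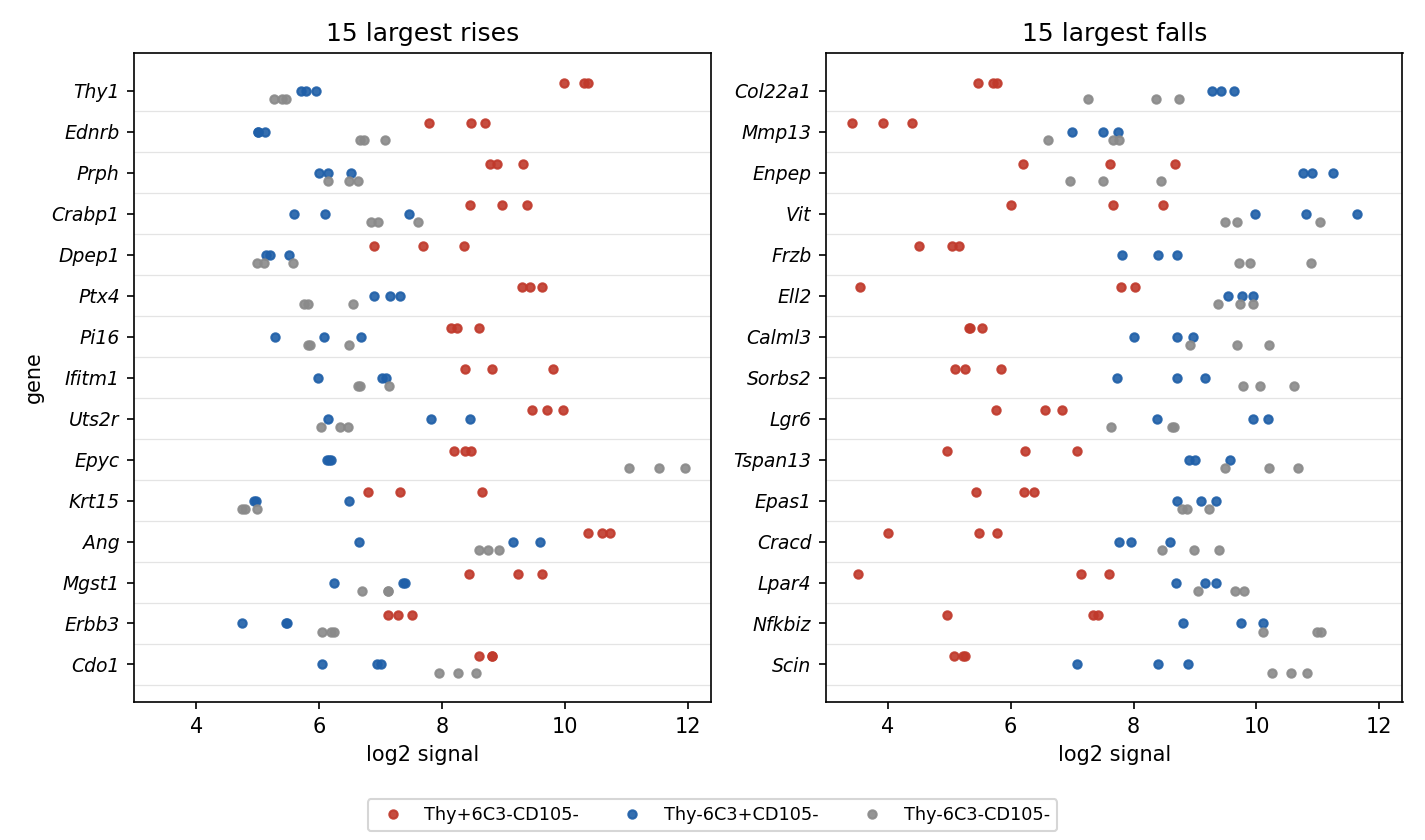
Log2 signal on each array for the 15 largest rises and 15 largest falls, with red points for Thy+6C3-CD105-, blue for Thy-6C3+CD105- and grey for Thy-6C3-CD105- cells. Thy1 differs by 4.41 and Col22a1 by -3.79, and 1 Thy+6C3-CD105- array stands below the others for Ell2 and Lpar4.

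Thy+ cells, 6C3+ cells and the triple-negative Thy-6C3-CD105- cells were set side by side for the called genes. Of the 167 genes higher in Thy+ cells, the Thy-6C3-CD105- mean was nearer the 6C3+ mean for 149 and nearer the Thy+ mean for 18. Of the 240 lower genes it was nearer the 6C3+ mean for 200 and nearer the Thy+ mean for 40. Among the 40 was Enpep, with a mean of 7.64 in Thy-6C3-CD105- cells, close to the 7.49 of Thy+ cells. A Thy-6C3-CD105- mean that lay beyond both groups was counted as nearer the closer of them. On the cartilage matrix list that mean lay above both for 23 of 25 genes, so nearer does not mean alike. Such counts were not made over all genes.

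Cartilage matrix was the list with the most calls. Of 25 genes measured, 14 fell in Thy+ cells and 2 rose, with a median log2 difference of -1.09, where the median of all genes was 0.0673. Col2a1, the main collagen of cartilage, had 10.86, 10.99 and 11.81 in Thy+ cells, against 13.47, 13.26 and 13.48 in 6C3+ cells (-2.18 ± 0.20, adjusted p = 6.83e-06). Col9a1, a chain of the fibril-bound collagen IX, had 10.89, 11.11 and 9.16 in Thy+ cells, against 12.30, 12.59 and 12.76 in 6C3+ cells (-2.16 ± 0.33, adjusted p = 0.0011). Cytl1, a secreted protein of chondrocytes, had 7.99, 8.38 and 8.49 in Thy+ cells, against 10.85, 11.14 and 11.12 in 6C3+ cells (-2.75 ± 0.21, adjusted p = 8.27e-07). No array of one group reached the other for these genes. Vit, vitrin, fell most of the list, with 7.66, 8.48 and 6.00 in Thy+ cells, against 9.97, 10.81 and 11.63 in 6C3+ cells (-3.43 ± 0.59, adjusted p = 0.00301). Col9a2, Col9a3, Comp, Hapln1, Chad, Cnmd, Cilp, Prg4, Scrg1 and Chst11 were the other genes that fell, by 0.82 to 2.61. Without replicate 3 of the Thy+ cells the count was again 14 lower and 2 higher, and with only the 6 compared arrays it was 4 lower and 1 higher. Col9a3 and Hapln1 lost their calls without replicate 1 of the Thy+ cells (adjusted p = 0.0809 and 0.0558) or replicate 3 of the 6C3+ cells (adjusted p = 0.0774 and 0.0545), Col9a3 also without replicate 1 (adjusted p = 0.0594) and Hapln1 also without replicate 2 of the 6C3+ cells (adjusted p = 0.0689). The probe sets used changed by -1.09 for Col9a3 and -1.32 for Hapln1. Others changed by -2.57, -2.93 and -3 for Hapln1, and by -2.42 and 0.003 for Col9a3, the last at a mean signal of 3.6.

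The list did not move as a block. Acan, the core protein of aggrecan, had 12.52, 11.80 and 12.13 in Thy+ cells, against 12.55, 12.43 and 11.99 in 6C3+ cells, and did not pass (-0.17, adjusted p = 0.713). Col11a1, Col11a2, Matn3, Matn4, Snorc, Ucma and Otor lay between -0.28 and 0.20 and did not pass either, nor did Papss2 (-0.70). Epyc and Matn1 ran the other way. Epyc, epiphycan, a small proteoglycan of the epiphysis, had 8.19, 8.38 and 8.47 in Thy+ cells, against 6.19, 6.13 and 6.16 in 6C3+ cells (2.19 ± 0.26, adjusted p = 0.000143). Matn1, cartilage matrilin, had 5.84, 6.66 and 5.89 in Thy+ cells, against 4.51, 4.39 and 4.48 in 6C3+ cells (1.67 ± 0.34, adjusted p = 0.0114). In Thy-6C3-CD105- cells these genes averaged 11.51 and 11.62, above both. The same held for 23 of the 25 genes of the list, whose Thy-6C3-CD105- mean was above the means of Thy+ and 6C3+ cells. For the other 2, Vit and Cilp, it lay between them. The share over all genes was not counted. By the same measure 21 of 22 immediate early genes and 5 of 37 tendon and fibrous genes lay above both.

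**Figure D3:**
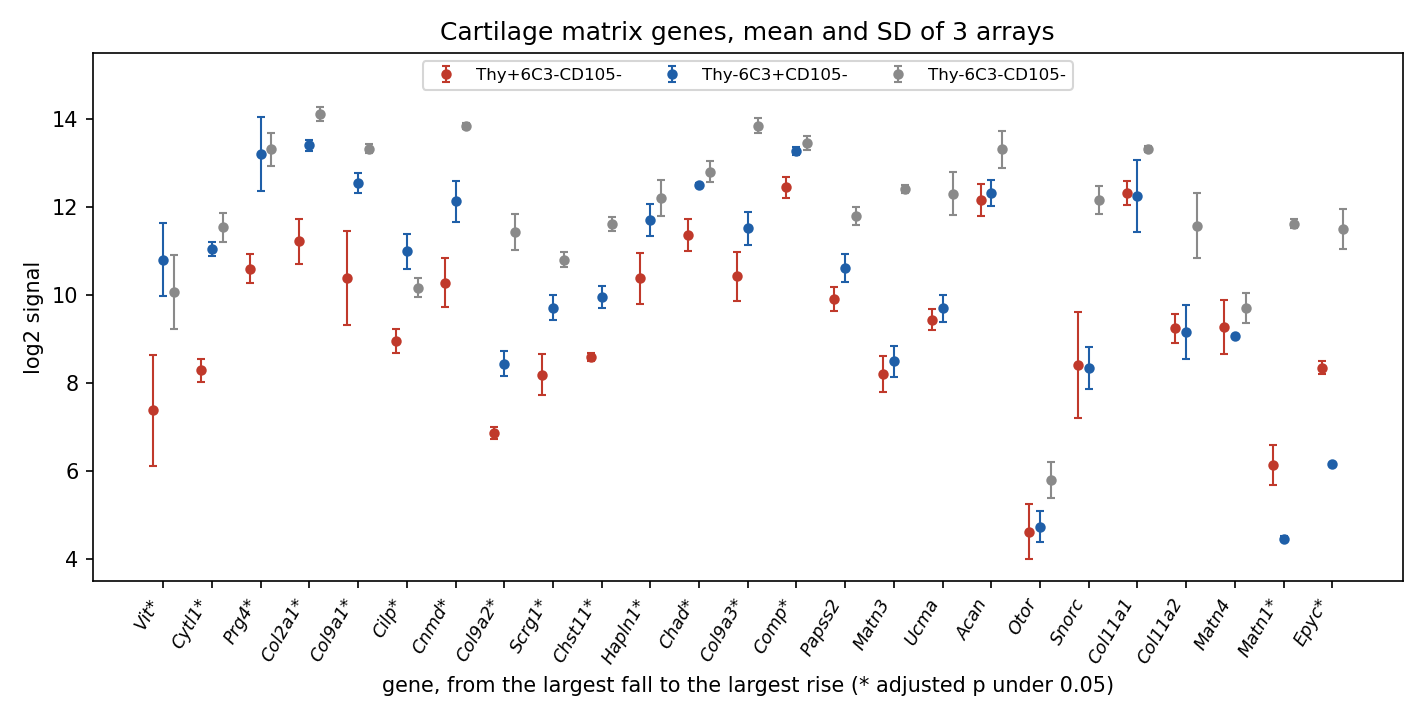
Mean and SD of 3 arrays for the 25 cartilage matrix genes, in log2 signal, with Thy+6C3-CD105- cells to the left of Thy-6C3+CD105- cells and Thy-6C3-CD105- cells on the right, from the largest fall to the largest rise. The 6C3+ points are above the Thy+ points for the genes on the left, and the order is turned for Matn1 and Epyc, while the Thy-6C3-CD105- points are the highest for 23 genes.

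Of 14 regulators of cartilage 4 fell, none rose and 10 were not called (median -0.66). Wwp2, a ubiquitin ligase whose locus holds a cartilage microRNA, had 9.55, 9.77 and 9.46 in Thy+ cells, against 11.05, 11.24 and 11.23 in 6C3+ cells (-1.58 ± 0.17, adjusted p = 3.44e-05). Sox5, a partner of Sox9 in cartilage gene expression, had 6.96, 7.31 and 7.92 in Thy+ cells, against 8.73, 9.39 and 9.69 in 6C3+ cells (-1.88 ± 0.31, adjusted p = 0.00203). Sox9 itself had 7.09, 7.44 and 9.21 in Thy+ cells, against 8.71, 9.25 and 9.40 in 6C3+ cells, and the overlap of the groups rested on replicate 3 of the Thy+ cells (-1.21, adjusted p = 0.169). Sox6 and Foxa3 were called (-1.81 and -1.57, adjusted p = 0.037 and 0.0404) but not without replicate 3 of the Thy+ cells (adjusted p = 0.165 and 0.1). Both also lost the call without replicate 1 of the 6C3+ cells (adjusted p = 0.0996 and 0.0787), Sox6 without replicate 3 of the 6C3+ cells (adjusted p = 0.0771), and Foxa3 without replicate 1 of the Thy+ cells or 2 of the 6C3+ cells (adjusted p = 0.0768 and 0.22).

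Of 19 genes of hypertrophic cartilage and mineral, 4 fell and none rose, and the median was 0.0073. Besides Mmp13, Smpd3, a sphingomyelinase needed for mineralisation in mice, had 5.90, 5.71 and 5.35 in Thy+ cells, against 7.91, 7.33 and 8.06 in 6C3+ cells (-2.11 ± 0.26, adjusted p = 0.000194). Ibsp, bone sialoprotein, had 4.66, 4.13 and 3.32 in Thy+ cells, against 8.72, 4.42 and 8.87 in 6C3+ cells, so that replicate 2 of the 6C3+ cells lay with the Thy+ arrays. Its call (-3.30 ± 0.82, adjusted p = 0.0415) was lost when replicate 2 or 3 of the Thy+ cells or 1 or 3 of the 6C3+ cells was left out (adjusted p = 0.0539, 0.155, 0.134 and 0.0949). Ank, a transporter of pyrophosphate, fell less (-0.82 ± 0.19, adjusted p = 0.0232) and not without replicate 1 of the Thy+ cells or replicate 3 of the 6C3+ cells (adjusted p = 0.0703 and 0.0746). Col10a1, the collagen of hypertrophic chondrocytes, had 5.73, 5.61 and 6.6 in Thy+ cells, against 5.46, 5.85 and 5.74 in 6C3+ cells (adjusted p = 0.584), where Thy-6C3-CD105- cells averaged 8.91. Ihh, the signal Indian hedgehog of prehypertrophic chondrocytes, and Sp7, a bone transcription factor, did not pass either (adjusted p = 0.287 and 0.936).

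Promoter windows of RefSeq (GRCm38.p6, 250 bases before to 50 after the start of the gene) are shown for the fallen gene Mmp13 and the risen gene Prph, both called in every setting. The Mmp13 window is chr9:7272264-7272563 and the Prph window chr15:99054924-99055223, both on the plus strand. Capitals mark matches to the searched motifs, on either strand. These were TATAAA (a core promoter element), TGANTCA (AP-1), TGTGGT (Runx core) and AACAAT (Sox core).
Mmp13: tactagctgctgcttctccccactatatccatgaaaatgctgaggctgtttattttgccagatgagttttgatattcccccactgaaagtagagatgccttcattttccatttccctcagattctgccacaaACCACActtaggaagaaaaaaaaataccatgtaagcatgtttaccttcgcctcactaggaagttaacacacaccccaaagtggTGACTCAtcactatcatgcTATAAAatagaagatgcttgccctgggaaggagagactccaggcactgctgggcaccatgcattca
Prph: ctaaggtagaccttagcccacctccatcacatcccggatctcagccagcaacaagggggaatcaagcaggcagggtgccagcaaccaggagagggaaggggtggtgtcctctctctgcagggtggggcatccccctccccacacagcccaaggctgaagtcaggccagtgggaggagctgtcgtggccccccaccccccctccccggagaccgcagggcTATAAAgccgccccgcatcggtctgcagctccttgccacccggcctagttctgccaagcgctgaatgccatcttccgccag
In the Mmp13 window the TATAAA match starts at base -16, the AP-1 match at -35 and the Runx core, on the minus strand, at -118, counted from the start of the gene. In the Prph window a TATAAA match starts at -31. No 2 of these matches overlap, and the single windows of Ednrb and Frzb hold none of the 4 motifs. Thy1 is not in the promoter table used. Of all 32851 windows in the table, 13.6% hold TATAAA, 7.81% the AP-1 motif, 16.8% the Runx core and 10.7% the Sox core. For the 122 higher genes with a window (159 windows) the shares were 8.81%, 7.55%, 12.6% and 9.43%. For the 187 lower genes with a window (272 windows) they were 11.4%, 7.72%, 10.7% and 8.09%. None of these shares exceeds that of all windows, and a match in a window is no evidence of binding.

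Of 16 genes of the joint surface, 7 fell and none rose in Thy+ cells (Col22a1, Prg4, Gdf5, Cilp, Has2, Erg and Clu), with a list median of -0.88. Prg4, lubricin, had 10.70, 10.86 and 10.22 in Thy+ cells, against 13.55, 12.24 and 13.82 in 6C3+ cells (-2.61 ± 0.32, adjusted p = 0.000164). Gdf5, a ligand of the BMP family that marks forming joints, had 7.66, 7.71 and 6.82 in Thy+ cells, against 9.23, 9.79 and 9.37 in 6C3+ cells (-2.06 ± 0.26, adjusted p = 0.000201). Cilp, a matrix protein of the middle zone of articular cartilage, had 9.21, 8.97 and 8.66 in Thy+ cells, against 10.54, 11.29 and 11.15 in 6C3+ cells (-2.04 ± 0.23, adjusted p = 6.23e-05). Every 6C3+ array was above every Thy+ array in these genes. Erg, a transcription factor of joint cartilage that is also on the endothelial list, fell by 1.38 ± 0.22 (adjusted p = 0.0014). Has2 lost its call without replicate 1 or 3 of the Thy+ cells (adjusted p = 0.0607 and 0.0587) or 2 or 3 of the 6C3+ cells (adjusted p = 0.162 and 0.0625), and Clu without replicate 3 of the 6C3+ cells (adjusted p = 0.0539). The list median was -0.56 without replicate 3 of the Thy+ cells, with 6 genes lower.

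Most tendon and fibrous genes did not pass the test. Of 37 measured, 5 rose (Mfap5, Mfap4, Eln, Kera and Fbln2) and 2 fell (Fbln7 and Egr1), with a median of 0.21. Eln, elastin, had 12.12, 11.76 and 12.02 in Thy+ cells, against 10.57, 10.19 and 9.99 in 6C3+ cells (1.72 ± 0.21, adjusted p = 0.000152). Mfap4, a protein of elastin microfibrils, had 12.25, 12.59 and 13.08 in Thy+ cells, against 10.48, 11.05 and 10.90 in 6C3+ cells (1.83 ± 0.24, adjusted p = 0.000304). Mfap5, another microfibril protein, had 10.14, 10.16 and 10.45 in Thy+ cells, against 8.58, 7.96 and 8.15 in 6C3+ cells (2.02 ± 0.29, adjusted p = 0.000569). Kera, the proteoglycan keratocan, had 12.62, 13.15 and 12.86 in Thy+ cells, against 10.76, 11.74 and 11.15 in 6C3+ cells (1.66 ± 0.26, adjusted p = 0.00136). No Thy+ array was as low as the highest 6C3+ array for these 4 genes. The tendon genes Scx, Mkx, Tnmd and Thbs4 did not pass (adjusted p = 0.666, 0.726, 0.256 and 0.701), nor did Col1a1 and Col1a2, the chains of collagen I (0.18 and 0.21, adjusted p = 0.79 and 0.309). Fbln7 lost its call without replicate 2 of the 6C3+ cells (adjusted p = 0.062). With the values as deposited 4 members were higher and 7 lower, and with a common median 4 and 4.

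Of 13 ligands of the BMP family 5 fell, none rose and 8 were not called, and the list median was -0.04. Gdf10, also called BMP3b, had 9.15, 9.11 and 8.82 in Thy+ cells, against 11.18, 11.37 and 11.07 in 6C3+ cells (-2.18 ± 0.15, adjusted p = 2.18e-07). Bmp2 had 6.49, 6.6 and 5.43 in Thy+ cells, against 8.28, 9.28 and 9.37 in 6C3+ cells (-2.80 ± 0.51, adjusted p = 0.00505). Groups did not overlap for either. Bmp6 and Bmp5 fell by 1.15 and 1.11 (adjusted p = 0.0222 and 0.0242), and both lost the call without replicate 1 of the Thy+ cells (adjusted p = 0.0555 and 0.055), replicate 2 of the 6C3+ cells (adjusted p = 0.0745 and 0.114) or replicate 3 of the 6C3+ cells (adjusted p = 0.0559 and 0.0694). Bmp6 also lost it without replicate 2 of the Thy+ cells (adjusted p = 0.0559). Among 17 BMP antagonists Smoc1 alone fell (-1.21 ± 0.25, adjusted p = 0.0125), and none of 18 receptors, Smads and targets and none of 17 TGF beta genes was called. The share called over all genes was 2.24%.

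Wnt genes changed in both directions. Of 12 ligands Wnt2 and Wnt5b rose (1.85 and 1.80) and none fell. Wnt2 had 7.43, 6.49 and 6.54 in Thy+ cells, against 5.29, 5.01 and 4.62 in 6C3+ cells (adjusted p = 0.000663). Among 17 antagonists and R-spondins, Dkk2 and Sfrp1 rose and Frzb and Wif1 fell. Wif1, a secreted inhibitor that binds Wnt proteins, had 11.44, 11.81 and 11.24 in Thy+ cells, against 12.54, 12.41 and 12.79 in 6C3+ cells (-1.08 ± 0.17, adjusted p = 0.00109). Lgr6 and Fzd9 fell among 21 receptors and targets, and the target Axin2 did not pass (adjusted p = 0.752). Calls that rested on single arrays were Wnt5b and Sfrp1, lost without replicate 3 of the Thy+ cells (adjusted p = 0.0861 and 0.0509) or replicate 2 of the 6C3+ cells (adjusted p = 0.0636 and 0.0896). Dkk2 lost its call without any of 4 of the 6 arrays (replicates 1 and 2 of the Thy+ cells and 2 and 3 of the 6C3+ cells, adjusted p up to 0.133), and Fzd9 without any of 3 (replicate 2 of the Thy+ cells and 1 and 2 of the 6C3+ cells, adjusted p up to 0.112). With the replicate number as a block Fzd9 was not called (adjusted p = 0.0507). With the values as deposited or a common median neither Dkk2 nor Sfrp1 passed, and the list had 0 rises and 2 falls.

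Other signalling lists had few calls. In the Hedgehog list Hhip, a membrane antagonist and target of the pathway, fell with 8.01, 7.98 and 8.92 in Thy+ cells, against 9.91, 10.97 and 10.12 in 6C3+ cells (-2.03 ± 0.27, adjusted p = 0.000315), and Hhat, which acylates the ligands, was the other of 2 calls among 15 genes. Hhat lost its call without replicate 3 of the Thy+ cells (adjusted p = 0.055) or replicate 2 of the 6C3+ cells (adjusted p = 0.0795). Etv5, a transcription factor induced by FGF signals, had 6.72, 6.99 and 5.15 in Thy+ cells, against 8.73, 8.40 and 8.55 in 6C3+ cells (-2.28 ± 0.33, adjusted p = 0.000683), one of 2 falls among 19 FGF genes. The other was Dusp6, a phosphatase that damps ERK signalling (-1.60, adjusted p = 0.0366), whose call was lost without replicate 1 or 3 of the Thy+ cells or 2 or 3 of the 6C3+ cells (adjusted p = 0.0946, 0.124, 0.203 and 0.0695). In the IGF list Igf2 and Pappa2, a protease of IGF binding proteins, fell by 0.54 and 1.16 (adjusted p = 0.00634 and 0.00753), 2 of 14 genes. Of 25 limb patterning factors, Twist2, Twist1 and Prrx2 rose and Shox2 fell. Twist2, a transcription factor of dermal and limb mesenchyme, had 9.16, 8.54 and 8.68 in Thy+ cells, against 7.23, 6.35 and 7.24 in 6C3+ cells (1.85 ± 0.30, adjusted p = 0.0019). Twist1 and Prrx2 lost their calls without replicate 1 of the Thy+ cells (adjusted p = 0.102 and 0.0593), replicate 2 of the 6C3+ cells (adjusted p = 0.231 and 0.114) or replicate 3 of the 6C3+ cells (adjusted p = 0.0558 and 0.0503), and Twist1 also without replicate 3 of the Thy+ cells (adjusted p = 0.0538). Hoxa10 and Hoxd9, positional factors of the limb axis, fell among 19 Hox genes (-1.53 and -1.04, adjusted p = 0.0116 and 0.0102), and both lost the call without replicate 2 of the 6C3+ cells (adjusted p = 0.0617 and 0.0702), Hoxa10 also without replicate 3 of the Thy+ cells (adjusted p = 0.053). Of 22 guidance genes Ncam1, a neural cell adhesion molecule, and Efna5, an ephrin ligand, rose (1.37 and 1.45, adjusted p = 0.00565 and 0.0242) and Sema3e, a semaphorin, fell (-1.75, adjusted p = 0.0339). Efna5 and Sema3e lost their calls without replicate 3 of the Thy+ cells (adjusted p = 0.104 and 0.137) or 2 of the 6C3+ cells (adjusted p = 0.147 and 0.162), and Sema3e also without replicate 1 of the Thy+ cells or 3 of the 6C3+ cells (adjusted p = 0.055 and 0.0591). Of 23 vessel growth genes Ednrb rose and Thbs1, an inhibitor of vessel growth, fell (-2.27, adjusted p = 0.00791), the last not without replicate 2 of the 6C3+ cells (adjusted p = 0.0577). Of 19 metalloproteases and inhibitors Mmp13 fell and Mmp23 rose (0.77, adjusted p = 0.0312), the last not without replicate 1 or 2 of the Thy+ cells or 2 or 3 of the 6C3+ cells (adjusted p up to 0.147). Apod, a lipid carrier, rose alone among 18 adipogenic genes (1.70, adjusted p = 0.00149). Of 20 interferon genes Ifitm1 rose and B2m fell (-0.66, adjusted p = 0.0366), B2m not without replicate 3 of the Thy+ cells or 1 or 2 of the 6C3+ cells (adjusted p = 0.121, 0.106 and 0.138). None of 16 Notch genes was called, and none of 20 chemokines and cytokines, 18 integrins and cadherins or 27 cell cycle genes. At the share over all genes (2.24%) lists of this size would often hold no call, so its lack does not set a list apart.

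Among surface molecules other than the sorting antigens, Cd248, or endosialin, a glycoprotein of fibroblasts and pericytes, had 10.09, 9.28 and 9.94 in Thy+ cells, against 8.53, 7.92 and 7.66 in 6C3+ cells (1.74 ± 0.29, adjusted p = 0.00231). Dpp4, a peptidase of the cell surface, had 6.52, 6.04 and 6.00 in Thy+ cells, against 5.2, 4.85 and 4.55 in 6C3+ cells (1.32 ± 0.25, adjusted p = 0.0062). Another Dpp4 probe set, at a mean signal of 5.23 beside 5.29 for the one used, changed by 0.19. Its remaining probe sets changed by 0.53 and -0.03, and averaging all Dpp4 probe sets ended the call. Vcam1, an adhesion molecule of stromal cells, had 9.70, 9.61 and 9.29 in Thy+ cells, against 8.22, 8.39 and 8.21 in 6C3+ cells (1.26 ± 0.20, adjusted p = 0.00122). The groups were apart in all 3 genes. Of 21 skeletal stem cell surface markers, Thy1, Cd248 and Alcam were called higher and Enpep and Nt5e lower, and of 11 surface peptidases Dpep1 and Dpp4 higher and Enpep lower. The calls of Thy1 and Enpep were set by the sort and are no finding about either list. Nt5e, which encodes CD73, fell by 1.10 (adjusted p = 0.0264) and lost its call without replicate 1 of the Thy+ cells or 1 or 2 of the 6C3+ cells (adjusted p = 0.0765, 0.0675 and 0.1). Of 29 genes of haematopoietic support, Vcam1 rose, Foxc1 and Dlk1 fell, and Cxcl12, Kitl, Csf1 and Il7 did not pass (adjusted p = 0.116, 0.422, 0.0739 and 0.493). Foxc1 lost its call without replicate 1 or 2 of the Thy+ cells or replicate 1 of the 6C3+ cells (adjusted p = 0.0617, 0.0528 and 0.0811), and Dlk1 lost its call with the replicate block (adjusted p = 0.055) and without any of 4 arrays (replicates 2 and 3 of the Thy+ cells and 1 and 2 of the 6C3+ cells, adjusted p up to 0.132).

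**Figure D4:**
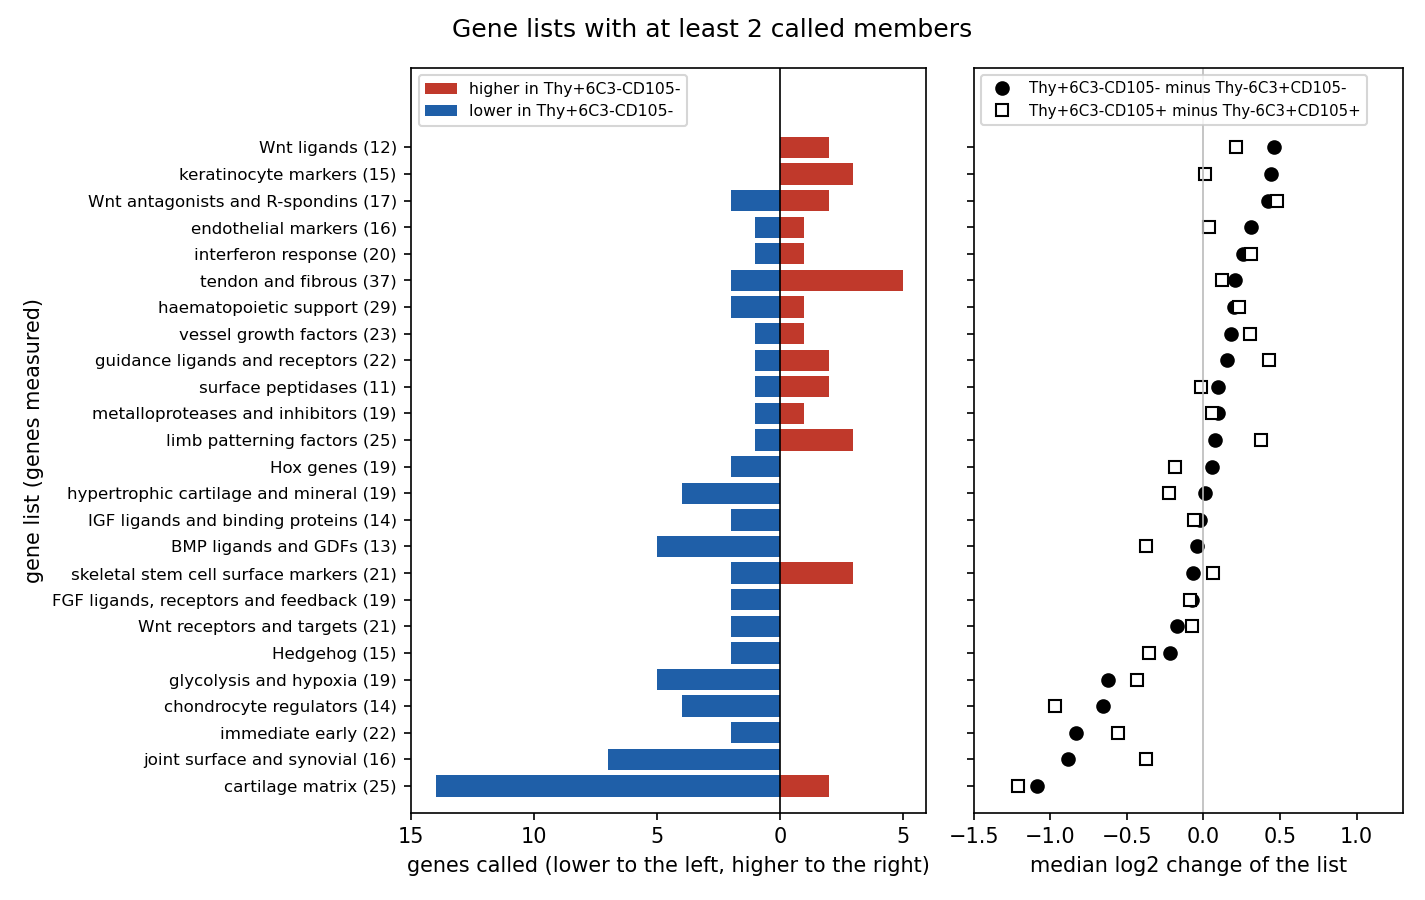
Called genes in each of the 25 lists (of 42) with at least 2 calls, on the left as counts, lower in Thy+6C3-CD105- to the left of 0 and higher to the right. The right panel gives the median log2 change of each list in the CD105- and the CD105+ comparison. Cartilage matrix has 14 lower and 2 higher genes, and tendon and fibrous 5 higher and 2 lower.

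The comparison of the same antigens in CD105+ cells takes its means from other arrays than this one. Both use the spread pooled over all 18 neonatal arrays and the same scaling, so their p-values are not independent. Among CD105+ cells 471 of 18193 genes passed (2.59%), 311 higher (1.71%) and 160 lower (0.879%) in Thy+6C3-CD105+ than in Thy-6C3+CD105+ cells. Genes called in both comparisons numbered 183, or 45% of the CD105- calls and 38.9% of the CD105+ calls, and all 183 had the same sign, 76 higher and 107 lower. Cartilage matrix had 15 lower and 2 higher genes among CD105+ cells (median -1.21), and Epyc and Matn1 were the 2 that rose there as well (1.81 and 2.49, adjusted p = 0.000374 and 0.000185). The difference between the comparisons was itself tested for every gene, and 39 passed (0.214%). Of these, 37 had a lower and 2 a higher Thy+ minus 6C3+ difference in CD105- cells than in CD105+ cells. In the 11 arrays of the high poly-A set none passed, with 622 genes at an unadjusted p under 0.05, and without replicate 1 of the 6C3+ cells 13 passed. The count was 18 to 25 without replicate 2 of the Thy+ cells, replicate 2 of the 6C3+ cells, replicate 2 or 3 of the Thy+6C3-CD105+ cells or any 1 of the Thy-6C3+CD105+ arrays.

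Epas1, which encodes the hypoxia-inducible factor HIF-2 alpha, gave the smallest adjusted p of this difference. Its log2 signal was 6.38, 6.21 and 5.43 in Thy+ cells, against 9.09, 9.34 and 8.71 in 6C3+ cells (-3.04 ± 0.23, adjusted p = 8.27e-07). In the CD105+ pair it was 9.85, 9.88 and 9.66 in Thy+6C3-CD105+ cells, against 9.82, 9.68 and 9.5 in Thy-6C3+CD105+ cells (0.13, adjusted p = 1). The Thy+ CD105- arrays were thus the low ones, below the Thy-6C3-CD105- mean of 8.96, and the difference between comparisons was -3.16 ± 0.33 (adjusted p = 0.000366). It missed the threshold within the high poly-A set (-3.22, adjusted p = 0.11). The other Epas1 probe set changed by -0.02 between Thy+ and 6C3+ cells. With the mean of both probe sets the Epas1 change was -1.53 (adjusted p = 0.000592) and the difference between comparisons -1.63 (adjusted p = 0.0261). Shox2, a transcription factor of proximal limb growth, had 7.2, 6.24 and 6.08 in Thy+ cells, against 8.58, 9.45 and 8.52 in 6C3+ cells (-2.34 ± 0.33, adjusted p = 0.000554). In the CD105+ pair it had 8.70, 8.43 and 8.51 in Thy+6C3-CD105+ cells, against 8.56, 8.54 and 7.60 in Thy-6C3+CD105+ cells. The Shox2 difference between comparisons (-2.65 ± 0.47, adjusted p = 0.0207) lost its call without 8 single arrays, at adjusted p up to 0.0716, and a Shox2 probe set that was not used had the opposite sign.

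The other hypoxia and glycolysis genes changed less. Of 19 measured, 5 fell and none rose (median -0.62): Epas1, Egln3, Hif1a, Pfkl and Pgk1. Egln3, a prolyl hydroxylase that targets these factors for degradation, had 5.94, 6.18 and 5.45 in Thy+ cells, against 7.49, 7.81 and 7.27 in 6C3+ cells (-1.67 ± 0.29, adjusted p = 0.003). Hif1a was not called with the replicate block (adjusted p = 0.0541), and Hif1a, Pfkl and Pgk1 each lost the call when single arrays were left out, at adjusted p up to 0.124, 0.18 and 0.214 without replicate 2 of the 6C3+ cells. The difference of Hif1a was -0.78 without replicate 3 of the Thy+ cells, where the full fit gave -1.48. The list had 2 calls without replicate 2 or 3 of the 6C3+ cells. Hif1a, Pfkl and Pgk1 also lost the call with the mean of their probe sets. Other Pgk1 probe sets, at mean signals of 12.56 and 10.8 beside 12.58 for the one used, changed by 0.05 and -0.09.

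Genes of mural cells, the pericytes and smooth muscle cells of vessel walls, were among the 39. Of the 19 genes on this list, 12 rose and none fell among CD105+ cells (median 1.69), whereas Mylk alone was called among CD105- cells (median 0.12, and -0.22 with the values as deposited and -0.19 with a common median), and 7 of the 19 passed the test of the difference. Rgs5, a regulator of G protein signalling and a marker of pericytes, had 8.26, 8.89 and 8.63 in Thy+ cells, against 9.46, 8.99 and 9.53 in 6C3+ cells. In the CD105+ pair it had 12.06, 12.40 and 12.21 in Thy+6C3-CD105+ cells, against 9.59, 10.13 and 9.44 in Thy-6C3+CD105+ cells, so the high arrays were those of the Thy+ CD105+ population (difference of the comparisons -3.23 ± 0.38, adjusted p = 0.000778). Kcnj8, a potassium channel subunit of pericytes, had 7.28, 6.99 and 7.89 in Thy+ cells, against 7.12, 7.16 and 6.90 in 6C3+ cells. In the CD105+ pair it had 9.54, 9.82 and 10.01 in Thy+6C3-CD105+ cells, against 6.82, 7.18 and 7.26 in Thy-6C3+CD105+ cells (-2.38 ± 0.31, adjusted p = 0.00167). Vgll3, a cofactor of Tead transcription factors, had 5.88, 4.76 and 3.78 in Thy+ cells, against 4.23, 4.27 and 3.56 in 6C3+ cells. In the CD105+ pair it had 8.15, 8.09 and 8.17 in Thy+6C3-CD105+ cells, against 3.84, 3.67 and 3.39 in Thy-6C3+CD105+ cells (-3.72 ± 0.52, adjusted p = 0.00255). Mylk lost its call in CD105- cells without replicate 1 of the Thy+ cells or 2 of the 6C3+ cells (adjusted p = 0.0653 and 0.147).

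**Figure D5:**
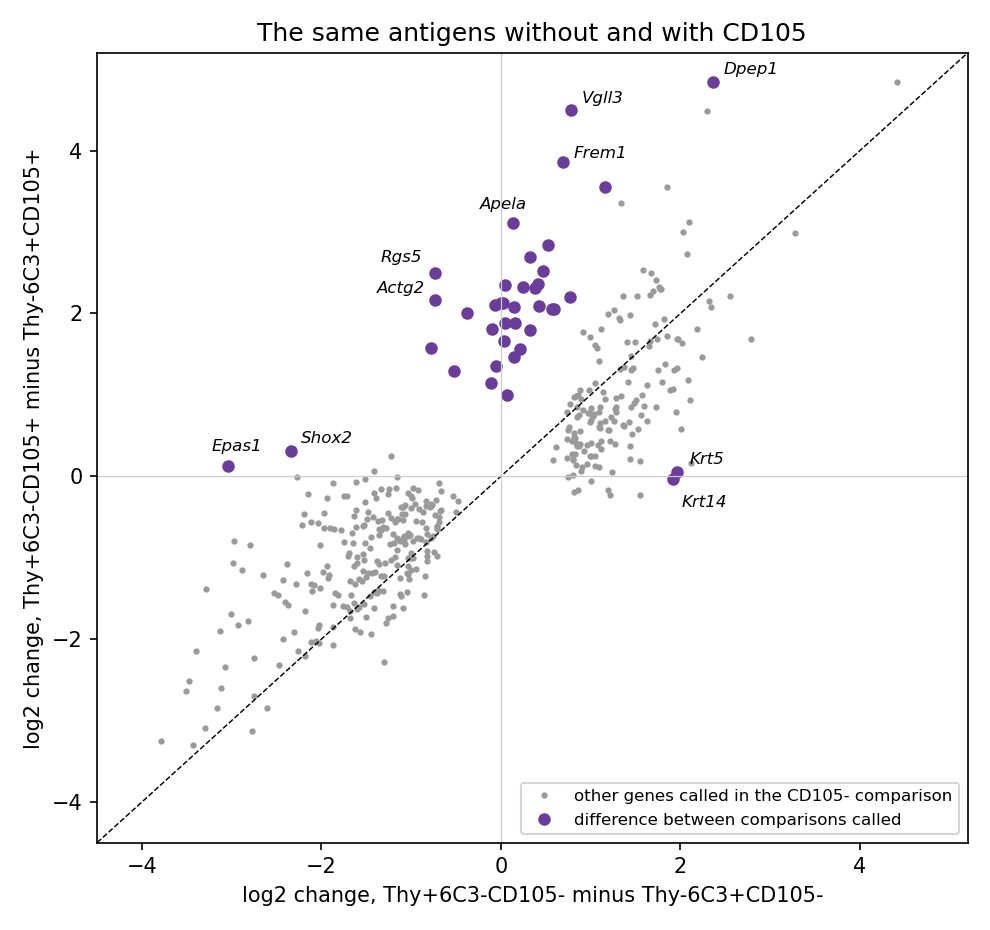
Log2 change in the CD105- comparison (horizontal) and the CD105+ comparison (vertical) for genes called in the CD105- comparison and for the 39 genes whose difference between comparisons was called (large points). The dashed line marks equal changes. Epas1 and Shox2 lie near 0 on the vertical axis, Krt5 and Krt14 to the right of the line, and Vgll3, Frem1 and Rgs5 far above it.

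Markers of other cell types were measured beside these results. Of 15 keratinocyte markers 3 rose in Thy+ cells (Krt5, Krt14 and Krt15) and none fell. Krt5, a keratin of basal epidermis, had 8.31, 8.97 and 9.25 in Thy+ cells, against 6.57, 6.84 and 7.23 in 6C3+ cells (1.96 ± 0.25, adjusted p = 0.000198), and it lay between 6.23 and 6.78 on the arrays of Thy-6C3-CD105- cells and of the CD105+ pair. Krt14, its partner, had 6.34, 7.71 and 6.54 in Thy+ cells, against 4.75, 4.78 and 5.29 in 6C3+ cells (1.92 ± 0.27, adjusted p = 0.00054). All Thy+ arrays were above all 6C3+ arrays in both. The mean log2 level of the 15 markers was 6.19, 6.57 and 6.39 in Thy+ cells, against 5.66, 5.62 and 5.79 in 6C3+ cells, and 5.43 to 5.70 on the 12 arrays of the other 4 populations. Krt1, a keratin of the upper epidermis, and Trp63, a transcription factor of basal epithelium, were low in both groups (4.74 to 5.02 and 5.07 to 5.29 in Thy+ cells, 4.72 to 4.99 and 4.85 to 5.29 in 6C3+ cells). The part of these markers in the other differences was not tested. The difference of Krt5 and Krt14 between the CD105- and CD105+ comparisons passed (1.91 and 1.96, adjusted p = 0.0233 and 0.044). Of the 12 arrays of both comparisons, leaving out any 1 of 9 ended the call of Krt5 (adjusted p up to 0.0991) and any 1 of 8 that of Krt14 (adjusted p up to 0.171), as did the fit with the values as deposited (adjusted p = 0.0719 and 0.0685).

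Of 10 neural and Schwann markers Erbb3 rose and none fell. Sox10, the defining factor of neural crest and Schwann cells, had 7.97, 7.41 and 8.75 in Thy+ cells, against 6.77, 5.78 and 7.17 in 6C3+ cells, and did not pass (1.47, adjusted p = 0.059). S100b and Pmp22 lay on the other side and did not pass (-1.31 and -0.19, adjusted p = 0.0922 and 0.612). Mbp, Foxd3, Ngfr, Cdh19, Pou3f1 and Dct lay between 0.096 and 0.66 and did not pass either. The mean level of the list was 6.76, 6.85 and 7.04 in Thy+ cells, against 6.6, 6.13 and 6.54 in 6C3+ cells, and 6.75 to 6.99 in Thy-6C3-CD105- cells. Beside Prph, Ednrb and Erbb3, the part of these markers was not tested. Endothelial markers had means of 6.46, 6.42 and 6.67 in Thy+ cells, against 6.23, 6.16 and 6.47 in 6C3+ cells, with Tek the rise and Erg the fall among 16. Of the 18 myeloid markers Cd14 fell (-1.19, adjusted p = 0.0349), a call lost without any single array but replicate 2 of the Thy+ cells (adjusted p up to 0.103), and of the 7 erythroid markers Tfrc, the transferrin receptor, fell (-1.64, adjusted p = 0.000292). No lymphoid, skeletal muscle or osteoclast marker was called among 9, 18 and 10, where 2.24% of all genes were called. Replicate 3 of the Thy+ cells still had the highest mean lymphoid level of all arrays (5.80, the others 4.77 to 5.36). The same held for skeletal muscle (5.61, the others 5.04 to 5.46). Its osteoclast mean of 6.68 was equalled by replicate 2 of the 6C3+ cells. Of 22 immediate early genes, which rise with tissue dissociation, Egr1 and Jun fell (-1.01 and -0.95, adjusted p = 0.00388 and 0.0368) and the list median was -0.83. Jun lost its call without replicate 3 of the Thy+ cells or 2 or 3 of the 6C3+ cells (adjusted p = 0.103, 0.206 and 0.0665).  None of 26 respiratory chain and none of 19 ribosomal protein genes was called, beside 2.24% of all genes.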

How the data were processed

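RNA of each sorted population, amplified in 2 rounds per the labels' protocols, was hybridised to Affymetrix arrays. The deposited values are log2 signals per probe set (2.55 to 14.6), and for the authors' steps from scans to values the sources used here give no tool. All 19 arrays were quantile-normalised together. Of 45101 probe sets, 34945 have 1 gene symbol, 932 several and 9160 none, and 64 are controls. For each of 18193 genes the probe set of highest average signal on the 18 neonatal arrays was kept.

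A linear model with 6 population means was fitted to the 18 arrays with limma 3.58.1 in R 4.3.3 (lmFit and eBayes with trend, 12 residual degrees of freedom). P-values were adjusted by Benjamini-Hochberg over all genes and called under 0.05. The fit was tested on simulated data in which every population had the same spread. That test cannot speak to the wider spread of the compared arrays. Errors are SEs of the fit. Precision is limited by the small number of arrays.

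The text names the genes of the sorting antigens, the 15 largest called changes in each direction (groups of arrays not overlapping, higher mean above the median gene mean of 6.756), up to 5 called members per direction of each list with at least 2, markers that define a cell type, and up to 6 genes per direction whose 2 comparisons differed. There were 42 lists (770 of 826 genes measured). Other genes, such as Kcnj8, single calls of a list and most members named as not called, were chosen after their values were seen. The populations, lists and named genes were chosen with earlier results of these data known.

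Deviations from the group means had r = 0.362, 0.130 and 0.303 over genes for arrays of the same replicate number in the CD105- pair. For arrays of unlike number r was -0.451 to 0.149, so the ranges overlap. The number was also fitted as a block. This pairing comes from the data and the labels' numbers. Other alternatives changed the scaling, the arrays used, the probe sets and the variance model. Promoters came from RefSeq (GRCm38.p6) by gene symbol. Figures were drawn with matplotlib 3.10.9.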

Additional observations from a re-analysis of the deposited data

Results flagged for a closer look

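The Thy+ minus 6C3+ difference was tested for a change between CD105- and CD105+ cells by a limma contrast, and 39 genes passed. The change in CD105- cells minus that in CD105+ cells, on the log2 scale, was -3.72 for Vgll3, -3.23 for Rgs5, -3.18 for Frem1, -3.16 for Epas1, -2.97 for Apela and -2.91 for Actg2. It was higher for Krt5 (1.91) and Krt14 (1.96).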

How the results depend on the processing

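Where the full fit called 407 genes, 33 were called with the 6 compared arrays alone, 615 with the poly-A set as a block, 66 with arrays grouped by title (1 array of 6C3+ cells, assumed to vary like the other groups), 242 without both arrays that stood apart, 184 in the high poly-A set and 69 with the compared arrays alone and a replicate block. It ran from 221 to 803 when single arrays were left out. With the replicate block 417 genes were called (CD105+ comparison 478, difference between comparisons 34), and among the 110 named calls the block ended those of Hif1a, Fzd9 and Dlk1 and no other. In the CD105+ pair same-numbered arrays did not deviate together (r = -0.564, 0.224 and -0.429). The CD105+ count of 471 was 816 with its compared arrays alone, 1500 with array weights, 294 among genes above the median mean level, 219 in the high poly-A set and 291 to 338 without single arrays. The 39 differences were 13 with the compared populations alone, 73 with array weights, 8 among genes above that median, 17 by title, 15 without both arrays, 0 in the high poly-A set (limma, 622 genes at an unadjusted p under 0.05) and 13 to 43 without single arrays. Without probe sets that can match several transcripts Dlk1 changed sign (0.48). The cause of these changes was not tested, beyond the fewer arrays or genes in some settings. Of the 110 named calls, 22 were kept with the compared arrays alone, 34 by title, 64 in the high poly-A set, 77 without replicate 2 of the 6C3+ cells and 91 without replicate 3 of the Thy+ cells.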
